A study of Mus musculus with 9 samples.

Results

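The miRNAs described here are miR-25, miR-92a, miR-92b and miR-363, a family defined by a shared seed. Their probes were found by name in the table of normalised values, and each of the 4 names matched 1 mouse-named probe, giving 4 of 582 miRNA probes. The rule works on names and uses no measured value. All 4 probes lay above the detection floor in at least 3 animals, so all 4 were tested.

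miRNA levels were measured in whole marrow from 8 mice, all female C57Bl6/J aged 6 weeks, with no transgene or deletion named in either group. The 5 control animals were left untreated, and 3 animals received 5-fluorouracil (5-FU), an antimetabolite that kills dividing cells, at 150 mg/kg by intraperitoneal injection, with marrow taken 4 days later. In both groups red cells were lysed before RNA was extracted, miRNAs were ligated to adaptors and amplified, and the products were hybridised to beads that each carry a probe, whose fluorescence was recorded. There were 9 arrays. The first of 2 batches held the 5 untreated animals and 5-FU animal 1, the second held 5-FU animals 1, 2 and 3, and the 2 arrays of 5-FU animal 1 were averaged and counted as 1 animal.

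A miRNA guides the silencing complex to messenger RNAs mainly through its seed, bases 2 to 8 from the 5′ end, so that miRNAs with the same seed share many predicted targets. The family is spread over several genes. miR-25 is made together with miR-106b and miR-93 from an intron of Mcm7, which encodes a subunit of the replication helicase. miR-92a is the last miRNA of the mir-17-92 transcript, which promotes the survival and proliferation of blood cell progenitors and is driven by Myc, and a further copy of miR-92a lies beside miR-363 in the X-linked mir-106a-363 cluster. miR-92b has a gene of its own and is best known from neural progenitors. The proapoptotic gene Bim (Bcl2l11) is a well-studied target of the seed.

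The mature sequences of the 4 members and of the other mouse miRNAs with their seed are shown to make the shared and the differing bases visible. They are from RefSeq (GRCm38.p6), 5′ to 3′, with the seed in capitals:
miR-25: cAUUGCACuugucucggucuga
miR-92a: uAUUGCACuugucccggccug
miR-92b: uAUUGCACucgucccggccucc
miR-363: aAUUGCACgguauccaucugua
miR-32: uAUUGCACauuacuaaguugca
miR-367: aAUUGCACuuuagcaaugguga

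Of 1679 mature mouse miRNA names in the RefSeq table, these 6 carried the seed AUUGCAC. Outside the seed they differ in degree. Compared base by base from the 5′ end, seed included, miR-92a matched miR-92b at 19 of 21 positions and miR-25 at 18 of 21, whereas it matched miR-363 at 10 of 21. After the seed it matched miR-92b and miR-25 at 11 of 13 positions each, and miR-363 at 3 of 13. How far a bead probe for miR-92a also captures miR-92b or miR-25 was not tested.

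In the genome, miR-25 lies at chr5:138165332-138165353 on the minus strand, within the span of Mcm7. miR-92a has a copy at chr14:115044476-115044496 on the plus strand, within the span of the host transcript Mir17hg, and another at chrX:52741854-52741874 on the minus strand. miR-363 lies at chrX:52741697-52741718 on the minus strand, and the 6 hairpins of its cluster span 875 bases. miR-92b lies at chr3:89227126-89227147 on the minus strand. The table lists no other gene over miR-92b, miR-363 or the X-linked copy of miR-92a. The array reads mature miR-92a as 1 value and does not separate its 2 genes.

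After 5-FU the family split. miR-92a, miR-92b and miR-363 were lower in treated marrow, and miR-25 showed no change that passed the test. Values are log2 fluorescence as the authors normalised it, with a floor of 3. Of the 4 members, 3 were lower and 0 higher by limma (Benjamini-Hochberg adjusted p under 0.05), where 25.1% of all 379 tested probes were called lower and 15.6% higher. All 4 members lie among the 158 probes above log2 7 in at least 3 animals. In a fit of those 158 probes, 70 were called lower and 18 higher. Among the 379 probes, those called higher include many at the floor in all untreated animals, with small changes. Examples are miR-201 (mean 3 untreated and 3.09 treated) and miR-124 (mean 3 untreated and 3.4 treated). With 5-FU animal 1 read from its batch 1 array, 316 probes were tested, of which 82 were called lower and 20 higher. The fall of miR-92a and miR-363, but not that of miR-92b, was also found in raw fluorescence scaled to an equal total. In the order miR-25, miR-92a, miR-92b and miR-363, deposited untreated means declined from 12.62 to 8.18 and changes went from -0.05 to -2.93. Whether probe brightness has a part in the split was not tested. In bulk marrow, fewer cells of a type and less RNA per cell cannot be told apart.

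miR-25 was the brightest probe of the family and ranked 21 of 582 by mean untreated signal. In untreated animals 1 to 5 its log2 signal was 12.69, 12.80, 12.30, 12.67 and 12.63. In 5-FU animal 1 it was 12.89 on the batch 1 array and 12.46 on the batch 2 array, and in animals 2 and 3 it was 12.59 and 12.45. The groups overlapped fully. The means were 12.62 ± 0.19 (SD, n = 5) and 12.57 ± 0.11 (SD, n = 3). The change was -0.05 with an SE of 0.12 and a 95% interval of -0.33 to 0.23 (limma adjusted p = 0.740). The false discovery rate of this probe in the authors' deposited table was 0.893. On the batch 1 array of 5-FU animal 1 alone, miR-25 lay just above the highest untreated animal.

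miR-92a was nearly as bright in untreated marrow and the least variable member there. Its log2 signal was 12.14, 12.07, 11.96, 12.13 and 11.99 in untreated animals 1 to 5. It was 11.15 and 10.88 on the 2 arrays of 5-FU animal 1, and 10.70 and 10.88 in animals 2 and 3. Each treated array lay below each untreated array. With the 2 arrays of 5-FU animal 1 averaged, 25.6% of tested probes had all treated animals below all untreated animals. The mean fell from 12.06 ± 0.08 (SD, n = 5) to 10.87 ± 0.16 (SD, n = 3), which is -1.19 with an SE of 0.08 (limma adjusted p = 0.000279), or 2.28-fold lower. A hairpin-named probe for mir-92a was at the floor on all 9 arrays and gives no information on the precursor. In the authors' deposited table the false discovery rate of mature miR-92a was 0.00292, as was that of miR-92b, and that of miR-363 was 0.00305.

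miR-92b was dimmer. Its log2 signal was 9.36, 9.26, 9.95, 9.40 and 9.01 in untreated animals 1 to 5, 8.49 and 8.04 on the 2 arrays of 5-FU animal 1, and 7.94 and 8.10 in animals 2 and 3. The groups did not overlap in these normalised values. The mean went from 9.40 ± 0.34 (SD, n = 5) to 8.10 ± 0.16 (SD, n = 3), which is -1.30 with an SE of 0.20 (limma adjusted p = 0.00395), or 2.46-fold lower. In raw fluorescence scaled to an equal total the same comparison gave -0.21 (SE 0.15, limma adjusted p = 0.365), from means of 9.58 ± 0.13 (SD, n = 5) and 9.36 ± 0.23 (SD, n = 3), and the groups overlapped. The call on miR-92b thus held in this fit of the deposited values and not in raw values scaled to an equal total. With batch as a term the deposited change was -0.91 and did not pass.

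miR-363 was the dimmest member and had the largest change of the 4. Its log2 signal was 7.64, 7.52, 9.43, 8.10 and 8.20 in untreated animals 1 to 5, 5.18 and 4.85 on the 2 arrays of 5-FU animal 1, and 5.38 and 5.35 in animals 2 and 3. Each treated array lay below each untreated array, and untreated animal 3 stood above the other 4. The mean fell from 8.18 ± 0.76 (SD, n = 5) to 5.25 ± 0.20 (SD, n = 3), which is -2.93 with an SE of 0.43 (limma adjusted p = 0.00312), or 7.61-fold lower, the third largest fall among the 379 tested probes. Without untreated animal 3 the change was -2.62.

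**Figure D1:**
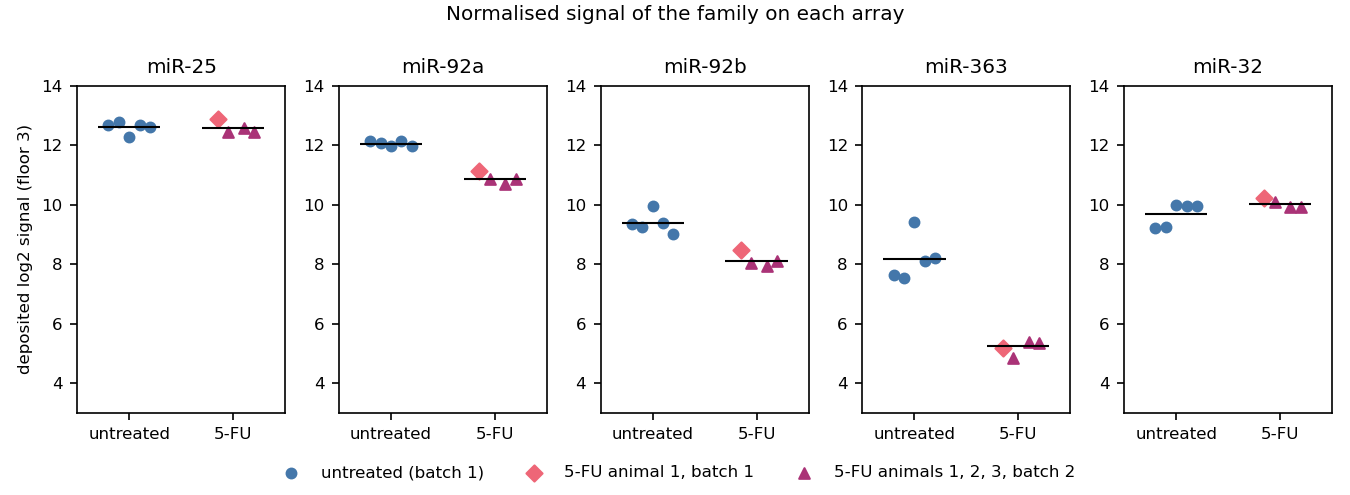
Deposited log2 signal (vertical axis, floor 3) of miR-25, miR-92a, miR-92b, miR-363 and miR-32 on the 9 arrays, with untreated animals as circles, 5-FU animal 1 in batch 1 as a diamond and the batch 2 arrays as triangles. Bars are group means over animals; miR-92a, miR-92b and miR-363 are apart between the groups, while miR-25 overlaps.

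The other miRNAs with this seed did not follow miR-92a. miR-32, which lies within the span of Tmem245 on chromosome 4, had log2 signals of 9.22, 9.25, 10.01, 9.95 and 9.97 in untreated animals 1 to 5. It was 10.24 and 10.10 on the 2 arrays of 5-FU animal 1 and 9.93 and 9.94 in animals 2 and 3. Untreated animals 1 and 2 were low, and the other 3 lay in the treated range. The change was 0.33 (SE 0.24, limma adjusted p = 0.306), with a 95% interval of -0.23 to 0.89. It passed in deposited values centred on the array median (0.80, limma adjusted p = 0.00533), where 118 of 379 tested probes were called higher. It also passed in quantile-normalised raw values (0.61, SE 0.15, limma adjusted p = 0.0169), where 15.5% of 323 tested probes were called higher. miR-367, known from embryonic stem cells, was at the floor on all 9 arrays, with raw fluorescence of 20 to 27 units. Its background was 18 units in both water wells and 77 units in the batch 2 buffer well.

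Since the members are read on the same array, their log2 difference within an animal does not depend on a scaling common to both. It still carries any batch difference that is specific to a probe, and for 5-FU animal 1 raw miR-92a minus miR-25 differed between its arrays, at -1.74 in batch 1 and -1.17 in batch 2. Over all 56 splits of the animals the smallest two-sided exact permutation p is 0.0357, and 17 such pairs were tested, 6 among members and 11 with cluster mates. miR-92a minus miR-25 went from -0.56 ± 0.15 (SD, n = 5) to -1.70 ± 0.16 (SD, n = 3), a difference in change of -1.14 (exact permutation p = 0.0357, adjusted over the 17 pairs 0.0467). miR-92b minus miR-25 changed by -1.25 and miR-363 minus miR-25 by -2.88, each with the same exact p. miR-92b and miR-363 are read in another bead pool than miR-25 and miR-92a. The deposited values have a separate scaling constant for each pool, so differences between pools also depend on that scaling. miR-363 minus miR-92a changed by -1.74 and miR-363 minus miR-92b by -1.63, again each at the smallest p. miR-92b minus miR-92a changed by -0.10 (exact permutation p = 0.964) in the deposited values.

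In raw fluorescence, miR-92a and miR-363 also lay further below miR-25 in treated than in untreated marrow. No scaling between arrays can move such a difference for probes of the same bead pool, which miR-363 and miR-25 are not. miR-25 and miR-92a are in the first of 2 bead pools, and miR-92b and miR-363 are in the second. Raw miR-92a minus miR-25 was -0.74 to -0.34 on the 5 untreated arrays, -1.74 on the batch 1 array of 5-FU animal 1, and -1.17, -1.48 and -1.16 on the batch 2 arrays. Each treated array was lower than each untreated array, and the difference in change was -0.80 (exact permutation p = 0.0357, adjusted 0.0506). Raw miR-363 minus miR-25 changed by -1.63 with the same p. Raw miR-92b minus miR-25 changed by -0.30 (exact permutation p = 0.143), and raw miR-92b minus miR-92a by 0.50 (exact permutation p = 0.0357, adjusted 0.0506). Raw miR-363 minus miR-92b, which are read in the same pool, changed by -1.33 with the groups apart. Raw miR-363 minus miR-92a changed by -0.83 and its groups overlapped (exact permutation p = 0.0714).

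**Figure D2:**
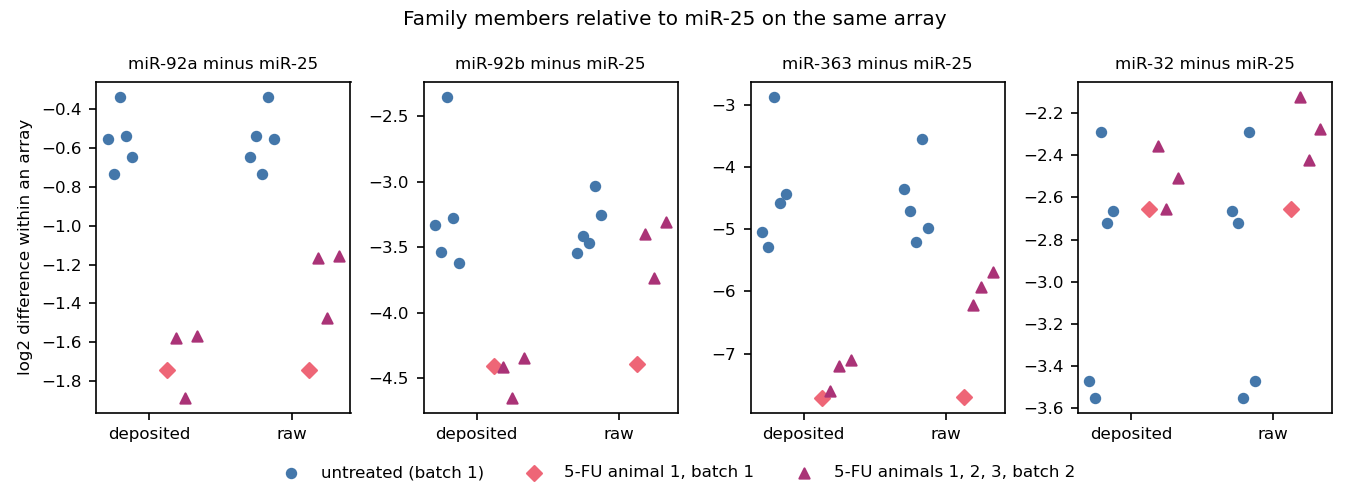
Log2 difference (vertical axis) between miR-92a, miR-92b, miR-363 or miR-32 and miR-25 on the same array, with a panel for each pair, deposited values at the left and raw fluorescence above the wells at the right of a panel, and symbols by group and batch. The treated arrays lie below all untreated arrays for miR-92a and miR-363 in both kinds of value, and for miR-92b in the deposited values only.

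Raw fluorescence shows where the miR-92b values part. On the batch 1 array of 5-FU animal 1 the raw miR-92b value was 359 units, below the 543 to 1105 units of the untreated arrays. On the batch 2 arrays it was 885, 670 and 945 units, inside that range. For miR-363 the raw values were 192.5 to 794 units in untreated marrow, 71 units on the batch 1 treated array, and 159, 179 and 213.5 units in batch 2. For miR-92a they were 3505 to 7048, 2153.5, and 4091, 3150 and 4141.5 units in the same order. miR-25 was at 5779 to 8856 units in untreated marrow and 7067 to 9161 units in treated marrow, of a highest raw value of 14764 units for any probe.

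The RNA of 5-FU animal 1 was read in both batches, which measures the batch difference directly. Raw values scaled to an equal total were higher in batch 2 than in batch 1 by 1.22 for miR-363, 0.74 for miR-92b and 0.32 for miR-92a on the log2 scale, and differed by -0.26 for miR-25. The deposited batch 2 columns carry a probe-specific term relative to the raw values, of -0.97 for miR-363, -0.60 for miR-92b, -0.20 for miR-92a and 0.21 for miR-25. With it, the batch 2 array of this animal lay below its batch 1 array by 0.33, 0.45, 0.27 and 0.44 for the same probes. No source used here says how that term was made. All untreated animals were in batch 1, so raw treated values from batch 2 are set against another batch.

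**Figure D3:**
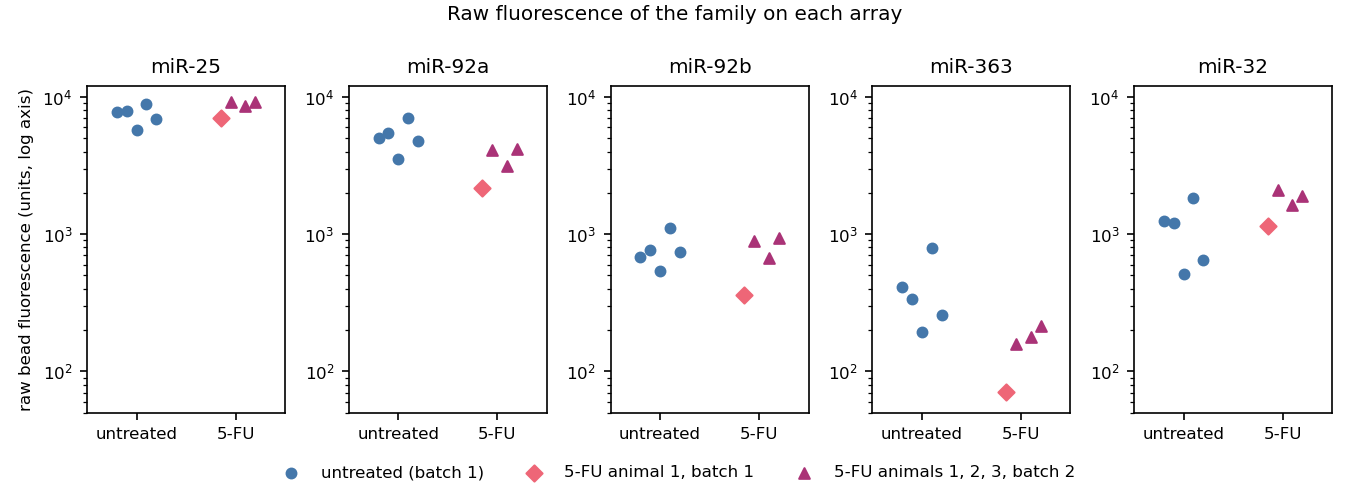
Raw bead fluorescence (vertical log axis, arbitrary units) of miR-25, miR-92a, miR-92b, miR-363 and miR-32 on each array, by group and batch. For miR-92b the batch 1 treated array, at 359 units, lies under the untreated arrays and the batch 2 treated arrays lie among them.

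Within batch 1, the only batch that holds both groups, 1 treated array stood against 5 untreated ones. The changes there were -0.90 (SE 0.08) for miR-92a, -0.91 (SE 0.36) for miR-92b, -2.99 (SE 0.79) for miR-363 and 0.28 (SE 0.20) for miR-25. Of the 4 probes miR-92a passed (limma adjusted p = 0.0177), where 2.11% of probes were called lower, and the adjusted p was 0.339 for miR-92b, 0.151 for miR-363 and 0.660 for miR-25. That test assumes that treated animals vary as untreated ones do. With batch as a term over the 9 arrays the changes were the same, since batch 2 holds no untreated array and the treated side still rests on 1 array. That fit counts the 2 arrays of 5-FU animal 1 separately. In that fit miR-92a (limma adjusted p = 0.00498) and miR-363 (adjusted p = 0.0406) passed and miR-92b did not (adjusted p = 0.154), against 7.39% of probes called lower.

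Under other scalings miR-92a and miR-363 stayed below 0 and their sizes differed. In raw values scaled to an equal total miR-92a changed by -0.71 (SE 0.12, limma adjusted p = 0.00430) and miR-363 by -1.54 (SE 0.35, adjusted p = 0.0147), where 9.06% of 331 tested probes were called lower. The untreated and treated means were 8.36 ± 0.50 (SD, n = 5) and 6.82 ± 0.63 (SD, n = 3) for miR-363, so that its fall was smaller than in the deposited values. Scaled to the control beads, where 2.71% of 332 tested probes were called lower, neither passed, with changes of -0.64 for miR-92a and -1.47 for miR-363 (limma adjusted p = 0.167 and 0.0988). miR-25 lay between -0.13 and 0.42 in all alternatives tried and was called in none.

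**Figure D4:**
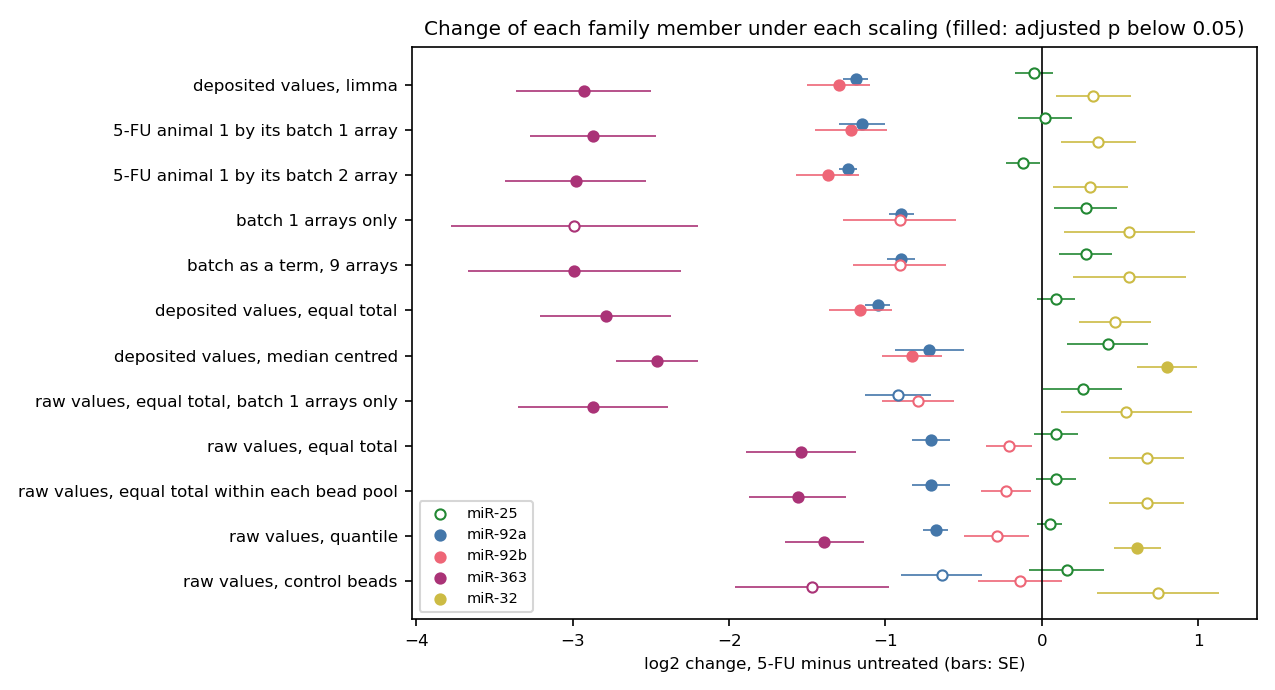
Change of miR-25, miR-92a, miR-92b, miR-363 and miR-32 (horizontal axis, log2, 5-FU minus untreated, bars are SE) under 12 choices of arrays and scaling. Filled points had an adjusted p below 0.05; miR-92a and miR-363 lie below 0 in all 12, and miR-92b is filled in deposited values of all animals fitted without a batch term and lies nearer 0 in raw values that include batch 2.

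The miRNAs made from the same transcripts as the members show whether a member moved with its cluster. Of 10 cluster mates, 6 were lower, 0 higher and 4 did not pass in the deposited values, where 25.1% of all tested probes were called lower and 15.6% higher. The median change of the mates was -0.55 against -0.16 over all tested probes. In the fit of the 158 probes above log2 7 the median was -0.32. There 5 of the 10 mates were called lower, as were 70 of the 158 probes. In the mir-106b-25 cluster on chromosome 5, neither mate passed. miR-106b, which targets the cell cycle inhibitor p21, changed by -0.03 (SE 0.15) and miR-93 by -0.24 (SE 0.09, limma adjusted p = 0.0747). miR-25 minus miR-106b changed by -0.02 (exact permutation p = 0.786; 0.14 with the groups apart in raw values) and miR-25 minus miR-93 by 0.19 (exact permutation p = 0.143).

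In the mir-17-92 cluster on chromosome 14 3 of 5 mates passed the test. miR-18a (-1.20, SE 0.16, limma adjusted p = 0.00215), miR-19a (-0.80, SE 0.12, adjusted p = 0.00356) and miR-19b (-0.29, SE 0.08, adjusted p = 0.0235) fell, although the groups of miR-19b overlapped and it was at -0.07 within batch 1 (limma adjusted p = 0.898). miR-19a and miR-19b share a seed. miR-17 (-0.27, adjusted p = 0.0832) and miR-20a (-0.24, adjusted p = 0.240), which repress cell cycle inhibitors, did not pass. This cluster also has hairpin-named probes, which were not counted as mates. The mouse one of mir-17 went from a mean of 8.44 to 6.87 (-1.57, SE 0.28, limma adjusted p = 0.00561). The human one of mir-17, close to the floor, went from 4.4 to 3.44 (-0.97, SE 0.21, limma adjusted p = 0.0119). That of mir-18a changed by -1.56 and did not pass (limma adjusted p = 0.177). What these probes capture was not tested. Within an array, the change of miR-92a minus that of miR-17 was -0.92, of miR-20a -0.96, of miR-19b -0.90 and of miR-19a -0.39, each with an exact permutation p of 0.0357 (adjusted 0.0467). In raw values these differences were -0.60, -0.51, -0.45 and -0.33, each with the groups apart and an adjusted p of 0.0506. miR-92a minus miR-18a changed by 0.01 (exact permutation p = 0.893), and by 0.30 in raw values (exact permutation p = 0.143). Within batch 1 miR-17 and miR-20a were at 0.04 and 0.08.

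In the mir-106a-363 cluster on the X chromosome miR-106a (-1.16, SE 0.12, limma adjusted p = 0.000746) and miR-20b (-1.46, SE 0.17, adjusted p = 0.00129) fell. A human-named probe for miR-18b fell by 1.38 (SE 0.25, adjusted p = 0.00598). A human-named probe for miR-106a, not counted among the mates, changed less, by -0.40 (SE 0.09, limma adjusted p = 0.0124). miR-19b is also encoded here. miR-363 is read in the second bead pool and these mates in the first, so their differences also depend on the scaling between pools. The change of miR-363 minus that of miR-106a was -1.77, of miR-20b -1.47, of miR-18b -1.55 and of miR-19b -2.64, each with an exact permutation p of 0.0357 (adjusted 0.0467). In raw values these differences were -1.52, -1.30, -0.90 and -1.28, with the groups apart except for miR-18b, where they overlapped (exact permutation p = 0.0714). In raw values with an equal total miR-106a changed by -0.03 and miR-20b by -0.24, and of the 10 mates miR-18a passed (-1.01, SE 0.18, limma adjusted p = 0.00566). The mates called with batch as a term were miR-18a and miR-106a. The probes of miR-17 with miR-106a and of miR-20a with miR-20b target near-identical miRNAs, and cross-capture was not tested.

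**Figure D5:**
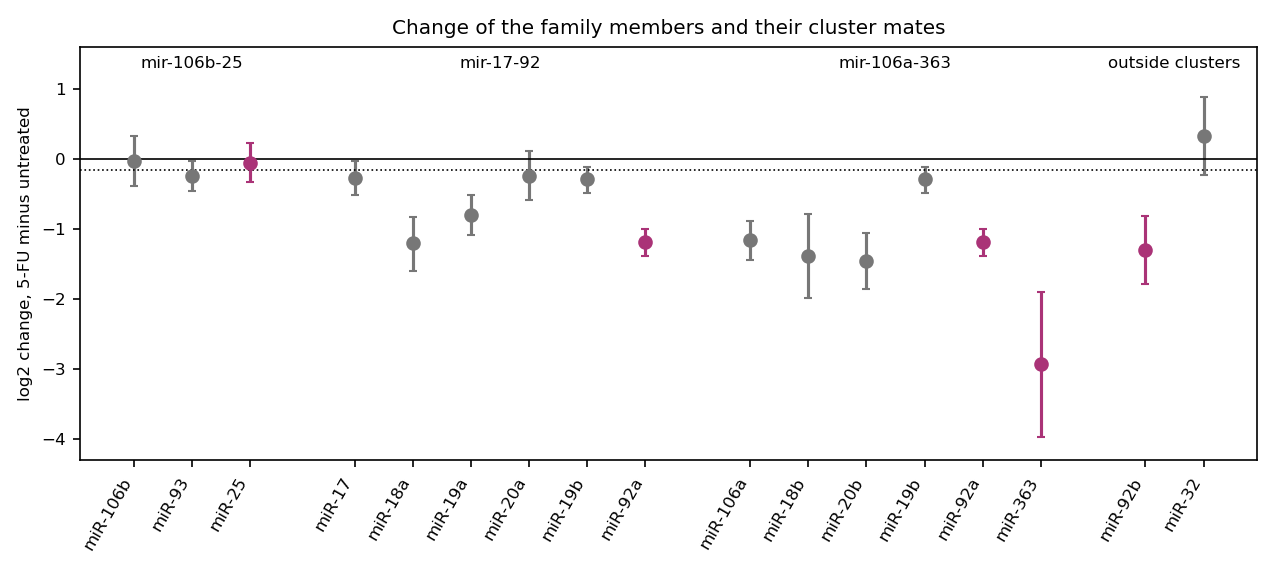
Log2 change (vertical axis, 5-FU minus untreated, deposited values, bars are 95% intervals) of the 4 members (coloured) and of their cluster mates and miR-32 (grey), ordered by cluster, with miR-92a and miR-19b drawn in both clusters that encode them. The dotted line is the median of all tested probes, -0.16; miR-25 lies with its mates, miR-92a below most of the mir-17-92 miRNAs, and miR-363 lowest.

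Among 206 other mouse-named probes, those nearest to each member were found by the root mean square difference over the 8 animals after centring each probe on its mean. The closest to miR-25 was its cluster mate miR-106b, at 0.06 on the log2 scale, followed by the erythroid miR-144 and let-7i at 0.08 each, where the median over all candidates was 0.44. The closest to miR-92a was miR-106a at 0.13, then miR-221 at 0.14 and miR-181a at 0.16, against a median of 0.60. For miR-92b they were miR-106a (0.19), miR-10b (0.22) and miR-320 (0.23), against 0.65. For miR-363 they were miR-877 (0.39), miR-181d (0.42) and miR-128 (0.42), against 1.45. These neighbours share arrays, batches and scaling with the members.

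Across the series, summed raw fluorescence was 336483 to 679696 units per array. The marrow markers miR-223, miR-142-3p, miR-142-5p, miR-150 and miR-181a were at 10.85 or higher in every animal. Of these, miR-150 (-0.39, limma adjusted p = 0.0389) and miR-181a (-0.92, limma adjusted p = 0.000279) were lower after 5-FU in the deposited values, with miR-150 at 0.04 and miR-181a at -0.80 within batch 1, and the summed level of the 5 was 14.32 to 14.93 in untreated and 14.43 to 14.60 in treated marrow. The liver miRNA miR-122 and the brain miRNAs miR-124 and miR-9 were at 4.47 or lower in every animal. Of the erythroid markers miR-451, miR-144 and miR-486, miR-451 was lower (-0.70, limma adjusted p = 0.0132) and was at -0.01 within batch 1, and their summed log2 level was 14.20 to 14.52 in untreated and 13.97 to 14.22 in treated marrow. The skeletal muscle markers, miR-206, miR-133b and miR-1, were higher in treated marrow, with summed levels of 12.23 to 13.24 and 13.64 to 13.74. Both smooth muscle markers (miR-143 and miR-145, summed 9.93 to 10.73 and 11.21 to 11.50) and both endothelial markers (miR-126-3p and miR-126-5p, summed 10.95 to 11.55 and 12.26 to 12.44) were higher too. The part of these shifts in the falls of miR-92a, miR-92b and miR-363 was not tested.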

How the data were processed

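The authors deposited log2 values scaled on the assumption that all arrays carry the same miRNA total, per the labels' design text, and 3 is their lowest value. The linear totals were not equal: batch 1 arrays summed to 401283 to 402143, whereas batch 2 arrays summed to between 355655 and 362039. The deposited raw table holds fluorescence intensity without normalisation, per the file headers, with 3 background wells. The p-values and false discovery rates in the deposited table are the authors' own. Upstream software was not given in the sources used. In batch 1 each normalised column equals log2 of raw intensity above the median of the 3 wells plus a constant per bead pool (100% of probes above log2 6 within 0.01). Each of the 5 untreated columns fits the raw column named for a different untreated animal, so single untreated animals were not followed between the tables; groups are unaffected.

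The 12 control bead rows were left out. Probes over the floor in 3 or more of the 8 animals (379 of 582) were compared with limma 3.58.1 (R 4.3.3), two-sided, with Benjamini-Hochberg adjustment over all tested probes. Differences between probes within an animal were tested by exact permutation (scipy 1.17.1). Raw alternatives subtracted the median well, scaled the arrays and then set the floor. Both steps were tested on simulated data. The members, lists and tests were chosen with earlier results of these data known. Named miRNAs are the members, their seed and cluster relatives, the 3 nearest probes to each member and the marker miRNAs. miR-133a had no mature mouse-named probe. The number of arrays limits precision.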

Additional observations from a re-analysis of the deposited data

Results flagged for a closer look

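In 3 of 15 probes of the family and its relatives, 1 untreated animal stood apart from the other 4, with a gap to its neighbour, as a share of the range, above Dixon's 95% critical value for 5 animals. Chance alone gives this in about 1 of 20 groups. The share was 0.758 for miR-18a, 0.773 for miR-19b and 0.714 for the human-named miR-18b probe, and in each the lowest animal was the one apart (11.22 against a median of 11.72, 12.10 against 12.31 and 10.42 against 11.19). None of the 4 members was among them.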

How the results depend on the processing

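The call on miR-92a was kept in all but 2 of its alternatives and that on miR-363 in all but 3, while miR-92b lost its call in 8 and none of these members turned direction. The raw values within each bead pool, with the batch 2 buffer well or from batch 1 alone, and the pair differences within pools, were alternatives added after seeing the data. The number of all probes called, 154 in the deposited values, was 102 with 5-FU animal 1 read from its batch 1 array, 37 with batch as a term, 12 within batch 1, 89 with batch as a random block, 88 for probes above log2 7 and 52 with the replicate block. It was 58 in raw values at an equal total, 19 in a separate fit of such values from batch 1 alone, 96 after quantile normalisation, 19 by control beads, 63 within pools, and 95 to 168 without each animal in turn. The methods' t-test after Benjamini-Hochberg adjustment called 88 lower and 87 higher. Of the 10 cluster mates 6 were lower, against 2 with batch as a term, 0 within batch 1 (4 by limma at an unadjusted p under 0.05), 1 at an equal raw total, 0 in a separate fit of such values from batch 1 alone (3 unadjusted), 3 by quantiles, 0 by control beads (1 unadjusted), 1 within pools, 1 with the buffer well, and 5 to 8 without each animal. Among all tested probes, 25.1% were called lower in the deposited values, 7.39% with batch as a term and 9.06% at an equal raw total. By control beads 2.71% were called lower, by quantiles 46 of 323, within pools 31 of 331 and with the buffer well 76 of 316. Centring arrays on the median moved the median of all tested probes from -0.16 to 0.31.

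miR-25 turned to 0.02 with the batch 1 array of animal 1, 0.28 with batch as a term and within batch 1, 0.06 with a random block, and 0.09 at an equal raw total, within pools and with deposited values rescaled to an equal total. It was 0.26 in raw batch 1 values, 0.05 by quantiles, 0.16 by control beads, 0.10 with the buffer well, 0.42 after median centring, and -0.13 to 0.01 without each animal. miR-92a missed the threshold in raw batch 1 values (-0.92, limma adjusted p = 0.0640) and by control beads (-0.64), and was -1.27 to -1.11 without each animal. miR-92b missed it at -0.91 with batch as a term and within batch 1, -0.21 at an equal raw total, -0.79 in raw batch 1 values, -0.29 by quantiles, -0.14 by control beads, -0.23 within pools and -0.34 with the buffer well. It was -1.39 to -1.16 without each animal. miR-363 missed it within batch 1 (-2.99), by control beads (-1.47) and with the replicate block (-2.95, limma adjusted p = 0.0585), and was -3.09 to -2.62 without each animal. miR-32 passed at 0.61 by quantiles and 0.80 after median centring, and was 0.22 to 0.42 without each animal. The causes were not tested.

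In raw values no pair passed, since the smallest adjusted exact permutation p there was 0.0506, while 12 of 17 had an unadjusted p under 0.05. miR-92a minus miR-25 was -0.80, miR-92b minus miR-25 -0.30 (-0.32 within pools), miR-363 minus miR-25 -1.63, miR-363 minus miR-92a -0.83 (-0.85 within pools) and miR-363 minus miR-92b -1.33. miR-92a minus miR-17, miR-19a, miR-20a and miR-19b was -0.60, -0.33, -0.51 and -0.45, and miR-363 minus miR-106a, miR-18b, miR-20b and miR-19b was -1.52, -0.90, -1.30 and -1.28. The sign turned for miR-92b minus miR-92a (0.50, and 0.48 within pools with an adjusted exact permutation p of 0.0467) and miR-25 minus miR-106b (0.14 in both), and for miR-92a minus miR-18a it was -0.04 with the batch 2 array of animal 1. Within batch 1, miR-363 minus miR-106a was -2.45 and minus miR-20b -2.29.

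Without each animal in turn the differences from miR-25 ran from -1.21 to -1.05 for miR-92a, -1.35 to -1.03 for miR-92b and -3.09 to -2.49 for miR-363. miR-92b minus miR-92a ran from -0.18 to 0.06, miR-363 minus miR-92a from -1.90 to -1.40 and miR-363 minus miR-92b from -1.78 to -1.43. Correlations of same-numbered animals between the groups were 0.05, 0.35 and 0.17, not all over 0.1. They cannot show whether the numbers pair the groups, since untreated numbers differ between the normalised and the raw columns. 5-FU animals 2 and 3 correlated best with the untreated animal of their own number, and 5-FU animal 1 with untreated animal 5.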

Other observations

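The deposited scaling constants of the 2 bead pools differed by -0.075 to 0.136 on the log2 scale in 4 untreated columns and by 0.678 in the column of untreated animal 3, whose second-pool probes are raised by that amount relative to its first-pool probes. miR-92b and miR-363 are second-pool probes, and this animal had the highest deposited value of both. In the raw column that it matches, labelled untreated animal 4, miR-363 minus miR-25 was -3.54, also the highest of the 5 untreated arrays.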
